A study of Drosophila melanogaster with 17 samples.

Results

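The lengths of newly made miRNAs were compared with the lengths of all copies of the same miRNA in Drosophila melanogaster Schneider 2 (S2) cells, a macrophage-like line of embryonic origin. Wild-type cells were given 4-thiouridine (s4U) at 500 µM, which polymerases build into new RNA in place of uridine, for 0.25, 0.5, 1, 3, 6, 12 or 24 h. Iodoacetamide (IAA) alkylated the s4U, which makes reverse transcriptase read the base as C, and reads of labelled molecules carry T>C. These 7 unoxidised labelled libraries, of 17 libraries in the series, were used with their 0 h library (no s4U, with IAA), which gave the background share of T>C reads at each read length. A library with neither s4U nor IAA served as a second background. All of these libraries hold RNA of 18 to 30 nt from total RNA of a single cell line, and there was 1 library per time, so that a difference at a single time has no replicate check and the p-values below measure the spread between libraries of different times.

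An arm is the 5p or 3p strand of a miRNA hairpin, and members were arms with a fixed start and at least 200 T>C reads in a labelled library. Of 315 listed combinations of arm and start, 82 qualified in at least 1 labelled library, 49 of them at 0.25 h and 81 at 24 h. A value was taken as usable where at least 50% of the T>C reads lay above background, which 79 arms met in some library. Of the 79, 5 were copies, with the same sequence as a more abundant arm over their most common length at 0 h. Another 19 were usable in fewer than 5 libraries. This left 55 arms for the tests over time, 33 guides (the more abundant arm of a hairpin) and 22 passengers. At the limit of 200 reads, miR-2279-5p had 202 T>C reads at 24 h and a length difference of 0.0613 nt, while miR-252-3p, just outside, had 186 T>C reads and 0.212 nt.

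A miRNA hairpin is cut first by Drosha in the nucleus and then by Dicer in the cytoplasm, and 1 strand of the resulting duplex, the guide, is kept in an Argonaute protein while the passenger is discarded. The 5′ end of the guide carries the seed, bases 2 to 8, which pairs with targets, and it is fixed by the cut. The 3′ end can change afterwards: in flies the exonuclease Nibbler shortens some miRNAs bound to Argonaute1, of which miR-34-5p is the best known, and nucleotidyl transferases can add U or A. Read length from a fixed 5′ start therefore reports the 3′ end.

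The arms on which the results turn are shown by their seeds, since several arms with longer labelled reads are relatives. Each line gives the sequence from the deposited table as DNA letters, 5′ to 3′, at the most common length of the arm at 0 h, with the seed in capitals. The first 4 belong to the K-box family, which represses pro-apoptotic genes, and share 1 seed, and miR-279-3p and miR-996-3p share another.
miR-2a-1-3p: tATCACAGccagctttgatgagct
miR-2b-1-3p: tATCACAGccagctttgaggag
miR-13b-2-3p: tATCACAGccattttgacgagtt
miR-11-3p: cATCACAGtctgagttcttgct
miR-279-3p: tGACTAGAtccacactcattaa
miR-996-3p: tGACTAGAtttcatgctcgtct
miR-276a-3p: tAGGAACTtcataccgtgctct
miR-995-3p: tAGCACCAcatgattcggctt

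The 3′ ends in which labelled reads were richer than all reads are shown next, to let the length differences below be read as bases. In some arms, such as miR-305-5p and miR-2a-1-3p, the full end was also the most common one among all reads. Each line ends at the first labelled length, the length with the most labelled reads in the earliest usable library, and capitals mark the bases missing from the shortest form that made up at least 10% of all reads at 0 h.
miR-317-3p: tgaacacagctggtggtatccAGT
miR-34-5p: tggcagtgtggttagctggttGTG
miR-2b-1-3p: tatcacagccagctttgaggagCG
miR-305-5p: attgtacttcatcaggtgctcTGG
miR-2a-1-3p: tatcacagccagctttgatgagCT
miR-996-3p: tgactagatttcatgctcgtcTA
miR-279-3p: tgactagatccacactcattAA
miR-277-3p: taaatgcactatctggtacgaCA
miR-306-5p: tcaggtacttagtgactctcaA
miR-9b-5p: tctttggtgattttagctgtatG
miR-276a-3p: taggaacttcataccgtgctct
miR-995-3p: tagcaccacatgattcggctt
The last pair has no capitals, because no shorter form reached 10% of their reads at 0 h.

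The 8 unoxidised libraries of the time course held 19041816 to 24665859 small RNA reads, of which 10321559 to 13199979 lay on miRNAs. Reads with T>C made up 0.147% of member reads at 0 h and 0.0842% in the library without s4U and IAA. After labelling for 0.25, 0.5, 1, 3, 6, 12 and 24 h the share was 0.438%, 0.760%, 1.08%, 2.39%, 3.60%, 7.57% and 11.6%, in that order. Bantam-3p, the leading guide of these cells, had 133548 to 178688 RPM, scaled to all small RNA reads of the library, whereas the muscle miRNA miR-1-3p had 0.715 to 1.07 RPM and the neuronal miR-124-3p 0.0900 to 0.309 RPM. The 6 h library stood apart in length: reads of 18 and 19 nt made up 5.72% of its member reads, against 1.27% to 3.98% in the other 7 libraries, and reads of 26 to 30 nt made up 0.326%, against 0.0899% to 0.143%. The part of these fragments in the 6 h values was not tested, and the results without that library are given where they differ. Over the 55 arms the mean length of all reads had an SD over the 8 libraries of 0.00849 to 0.287 nt, with a median of 0.0928 nt.

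The mean length of labelled reads was above that of all reads in most arms. Labelled reads are T>C reads above the 0 h share of their length, divided by the number of U in a read of that length. The length difference is the mean length of labelled reads minus that of all reads of the same arm in the same library. At 0.5 h its median over 53 usable arms was 0.261 nt, and 49 of the 53 were above 0. The medians were 0.236 nt at 0.25 h (36 arms), 0.218 nt at 1 h, 0.198 nt at 3 h, 0.105 nt at 6 h (54 arms), 0.129 nt at 12 h and 0.0772 nt at 24 h, over all 55 arms where no number is given. In the 35 arms usable at every time, the median was 0.238 nt at 0.25 h and 0.0804 nt at 24 h. The share of reads longer than the most common length, given further below, was not higher in labelled reads of the median arm at 1 h.

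Over all labelled times, labelled reads were longer than all reads in 45 of the 55 arms and shorter in 1 (limma moderated test at the middle of the time course on the log scale, 2.52 h, Benjamini-Hochberg adjusted p under 0.05), which is 81.8% and 1.82% of the arms tested. In 36 arms every usable library was above 0. The difference fell with labelling time in 30 arms, 54.5% of those tested, and rose in 0 (limma slope on log2 hours, adjusted p under 0.05; 0 rose and 32 fell at an unadjusted p under 0.05). Without background subtraction 14 fell and 3 rose, and with at least 500 T>C reads, where fewer arms could be tested, 19 fell. Exact permutation tests over the libraries called 40 arms longer, 1 shorter, 25 falling and 0 rising. The 7 differences of an arm share the same 0 h library, so an error in that background enters all of them.

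**Figure D1:**
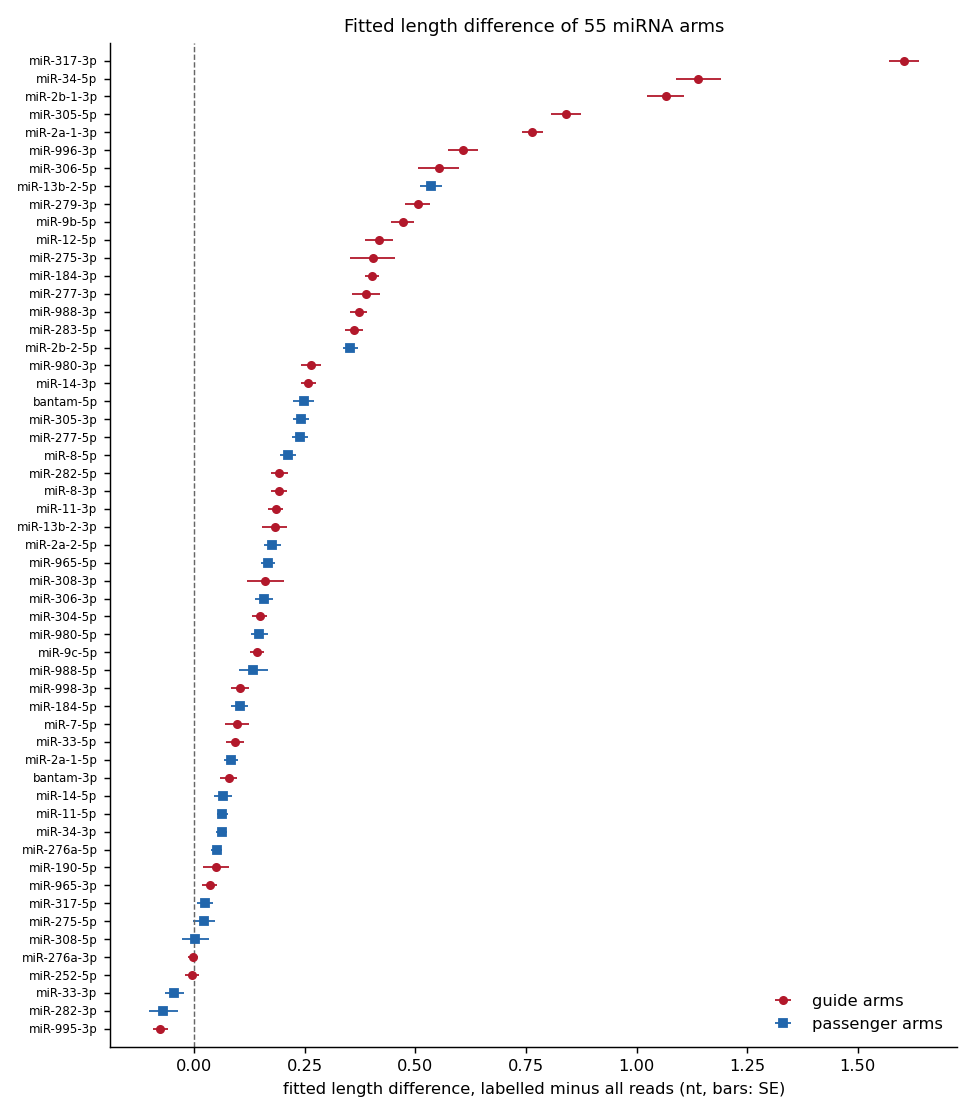
Fitted length difference (nt, labelled minus all reads, at the middle of the time course) of the 55 tested arms, with the SE as bars; circles are guides and squares passengers. The plot runs from 1.60 nt for miR-317-3p to −0.0764 nt for miR-995-3p, and most arms lie right of the dashed line at 0.

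The guides with the largest fitted length differences among the 55 arms were miR-317-3p, a regulator of Toll immune responses in flies, and miR-34-5p, known for its role in ageing and neuronal survival. Labelled miR-317-3p reads averaged 23.96 nt at 0.5 h, against 21.96 nt for all its reads. Its length difference was 2.00 nt at 0.5 h, 1.81 nt at 1 h, 1.69 nt at 3 h, 1.39 nt at 6 h, 1.24 nt at 12 h and 0.879 nt at 24 h, and every library was above 0. At 0.25 h too few of its 298 T>C reads were above background. The fitted difference was 1.60 ± 0.034 nt (SE, 6 libraries, limma adjusted p = 2.23e-08), and it fell by 0.189 ± 0.017 nt for each doubling of labelling time (adjusted p = 0.000424). That slope was −0.0033 without background subtraction (adjusted p = 0.962) and −0.0853 with the library without s4U and IAA as background (adjusted p = 0.0535).

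For miR-34-5p the length difference was 1.71 nt at 0.25 h, 1.51 nt at 0.5 h, 1.33 nt at 1 h, 1.40 nt at 3 h, 0.9502 nt at 6 h, 0.709 nt at 12 h and 0.371 nt at 24 h. The counting SE was 0.109 nt at 0.25 h and 0.00968 nt at 24 h, so the decline exceeded the counting error. The fitted difference was 1.14 ± 0.050 nt and the slope −0.187 ± 0.022 nt per doubling (SE, 7 libraries, limma adjusted p = 1.55e-07 and 0.000499). Both hairpins lie on chromosome 3R of BDGP6, miR-317 at 10091126 to 10091217 and miR-34 at 10100936 to 10101034, on the plus strand; miR-34 lies in an exon of the noncoding RNA lncRNA:CR43459.

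**Figure D2:**
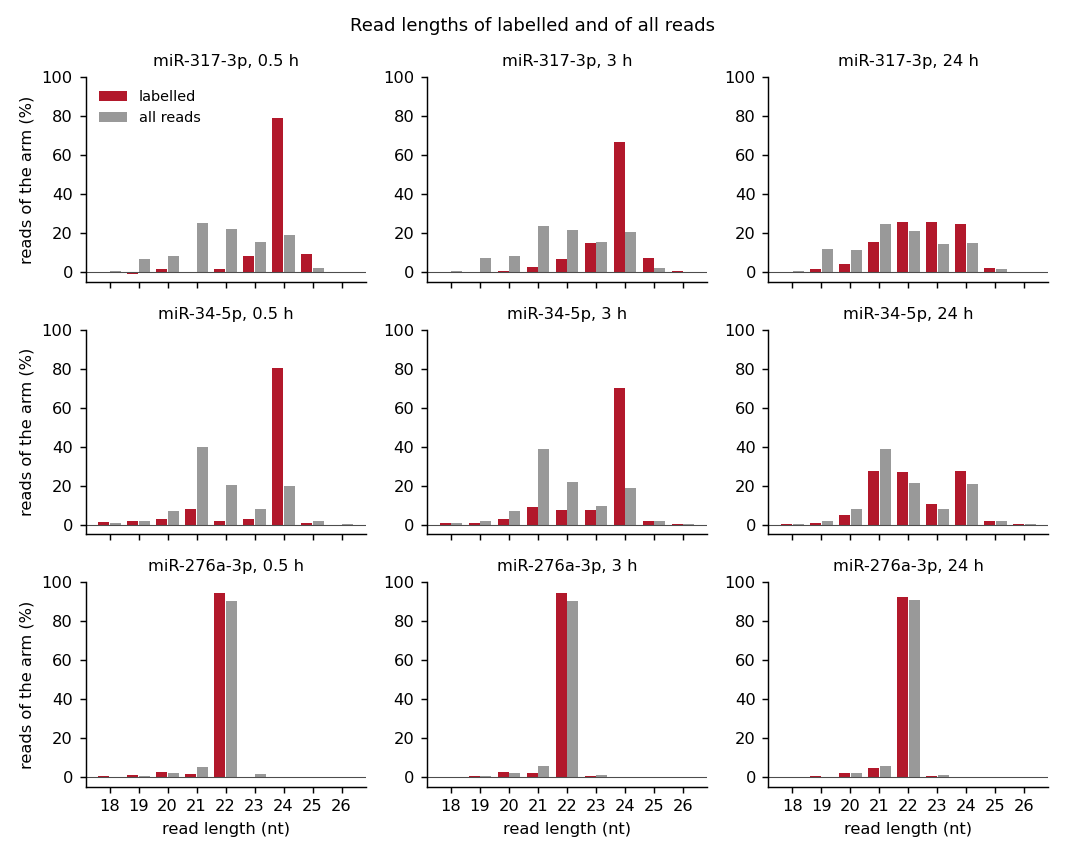
Percent of reads (y axis) at each read length (nt, x axis) for miR-317-3p, miR-34-5p and miR-276a-3p at 0.5, 3 and 24 h, with labelled reads (red, background subtracted, so that small negative values can occur) left of all reads (grey). In miR-317-3p and miR-34-5p the labelled reads stand at 24 nt at 0.5 h and spread to 21 nt by 24 h, while miR-276a-3p stays at 22 nt.

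The 24 nt form gave way to shorter ones among labelled reads. Whether the shorter forms came from it by trimming was not tested. At 0.5 h, 79.2% of labelled miR-317-3p reads were 24 nt long, against 18.9% of all its reads, and at 24 h 24.8% were, against 14.8%. At 21 nt, its most common length, stood 0.0202% of labelled reads at 0.5 h, against 25.0% of all reads, and 15.4% at 24 h, against 24.9%. In miR-34-5p 80.2% of labelled reads were 24 nt long at 0.5 h, against 19.8% of all reads, and 27.7% at 24 h, against 20.6%.

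The T>C share of each length showed the order in which the forms took up label. In miR-34-5p, reads of 24 nt had 0.0692% T>C at 0 h and 1.33% at 0.25 h (432 of 32366 reads, exact Clopper-Pearson 95% interval 1.21% to 1.47%). Reads of 21 nt had 0.107% at 0 h and 0.125% at 0.25 h (interval 0.0975% to 0.158%), which overlapped the interval at 0 h of 0.0810% to 0.140%. These intervals cover counting error only. Reads of 23 nt stood at 0.869% at 1 h and 2.44% at 3 h, reads of 22 nt at 0.193% and 0.954%, and reads of 21 nt at 0.458% and 0.715%, so that the 21 nt form was above the 22 nt form at 1 h and below it at 3 h. By 24 h the share was 18.3% at 24 nt, 18.2% at 23 nt, 15.1% at 22 nt and 8.72% at 21 nt.

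In miR-317-3p the T>C share was lower at each shorter length from 24 to 21 nt at 1 and 6 h. At 1 h the share was 1.92% at 24 nt, 0.378% at 23 nt, 0.166% at 22 nt and 0.103% at 21 nt, against 0.0586% to 0.0926% at these lengths at 0 h. At 6 h it was 8.02% at 24 nt, 3.10% at 23 nt, 1.24% at 22 nt and 0.613% at 21 nt. The 21 nt form reached 4.82% at 24 h, when the 24 nt form stood at 15.4%.

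In miR-277-3p, which represses genes that break down branched-chain amino acids, the difference closed within the time course. Its length difference was 0.644 nt at 0.25 h, 0.641 nt at 0.5 h, 0.661 nt at 1 h, 0.448 nt at 3 h, 0.304 nt at 6 h, 0.0631 nt at 12 h and −0.0359 nt at 24 h. The slope was −0.113 ± 0.014 nt per doubling (SE, 7 libraries, limma adjusted p = 0.000499). Reads of 23 nt had 0.814% T>C at 0.25 h and reads of 21 nt 0.125%, while at 24 h the shorter form was ahead, with 19.4% at 21 nt and 16.9% at 23 nt.

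**Figure D3:**
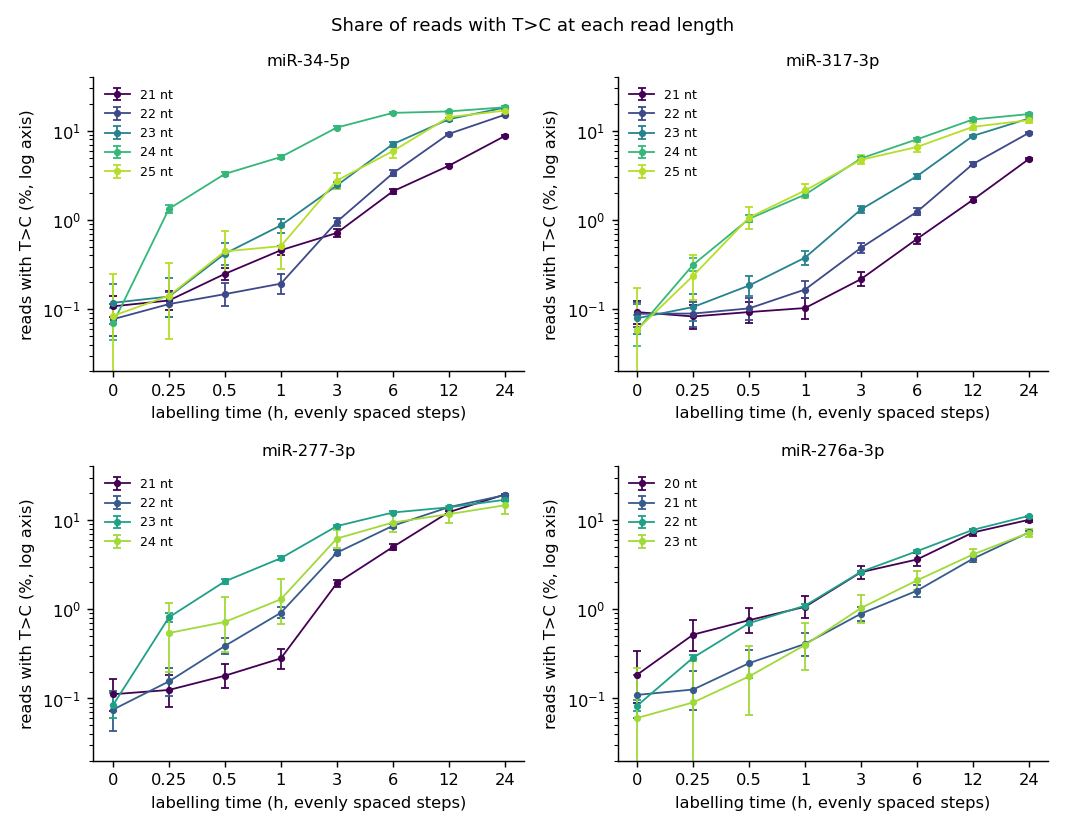
Share of reads with T>C (percent, log axis, bars: exact 95% intervals) at each read length against labelling time (h) for miR-34-5p, miR-317-3p, miR-277-3p and miR-276a-3p; points at 0 are not drawn. In miR-34-5p and miR-317-3p the 24 nt line leaves the 0 h level before those of 23, 22 and 21 nt, whereas in miR-276a-3p the 20 and 22 nt lines run close together and the 21 nt line lies below them.

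The K-box guides differed among themselves although they share a seed. MiR-2b-1-3p (hairpin on chromosome 2L, in an exon of Btk) had a fitted difference of 1.07 ± 0.041 nt. MiR-2a-1-3p (chromosome 2L, in an intron of spi) had 0.765 ± 0.023 nt (SE, 6 libraries each). Both have a copy with the same sequence at the most common length, miR-2b-2-3p and miR-2a-2-3p, whose hairpins lie in introns of spi. Reads of that length cannot be placed at 1 hairpin, so neither value belongs to the named locus alone. MiR-11-3p stood at 0.185 ± 0.017 nt, miR-13b-2-3p at 0.182 ± 0.029 nt and miR-308-3p at 0.161 ± 0.041 nt (0.141 nt and adjusted p = 0.0766 in a limma fit weighted by counting error). At 6 h miR-308-3p stood at −0.126 nt, against 0.187 to 0.248 nt at the other labelled times. All 5 K-box guides tested passed the test for longer labelled reads, with a median fitted difference of 0.185 nt, against 45 of 55 and a median of 0.176 nt over all arms tested. In 3 of the 5 the difference fell with time, against 54.5% of all arms.

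First labelled miR-2b-1-3p was 24 nt long, whereas its most common form at 0 h had 22 nt. At 0.5 h 85.2% of labelled reads were 24 nt long, against 19.6% of all reads, and at 24 h 33.0%, against 18.0%. In miR-2a-1-3p the 24 nt form was both the first labelled and the most common one, and its reads held 0.510% T>C at 0.5 h, against 0.115% at 23 nt and 0.116% at 22 nt. MiR-2a and miR-2b share their first 18 bases, so reads of 18 nt are counted for both. The slopes were −0.133 ± 0.021 nt per doubling for miR-2b-1-3p and −0.068 ± 0.011 for miR-2a-1-3p (limma adjusted p = 0.00182 and 0.00197). With no background subtraction the slope of miR-2a-1-3p was 0.0426 (adjusted p = 0.297), and that of miR-2b-1-3p −0.0063 (adjusted p = 0.927). With the library without s4U and IAA as background they were 0.000797 (adjusted p = 0.992) and −0.0634 (adjusted p = 0.132), in the same order, and the cause was not tested.

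The value of miR-13b-2-3p depended on the background. Its reads of 21 nt held 1.29% T>C at 0 h and those of 23 nt 0.0835%, and the 21 nt share was 0.522% in the library without s4U and IAA. Its length difference was 0.442 nt at 0.5 h, 0.226 nt at 1 h, 0.0810 nt at 3 h and 0.0174 nt at 24 h. Without background subtraction the fitted value was −0.118 nt (limma adjusted p = 0.000571), and with the library without s4U and IAA as background 0.00696 nt (adjusted p = 0.733).

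Other guides outside this family were also labelled first in a long form. In intestinal stem cells miR-305-5p tunes insulin and Notch signalling. Here it was labelled at 24 nt, with a difference of 1.02 nt at 0.25 h, 0.933 nt at 1 h, 0.737 nt at 6 h and 0.473 nt at 24 h. At 0.25 h 97.4% of its labelled reads were 24 nt long, against 46.0% of all its reads. Its form of 23 nt reached 24.3% T>C at 24 h, next to 24.9% at 24 nt, while 22 nt stood at 14.2% and 21 nt at 9.64%.

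MiR-996-3p and miR-279-3p, a pair with 1 seed and 1 host transcript that acts in neuronal fate, had fitted differences of 0.608 ± 0.033 and 0.505 ± 0.028 nt (SE, 7 libraries each). The first was labelled at 23 nt, and 78.2% of its labelled reads stood there at 0.5 h, against 30.1% of all reads. MiR-306-5p (0.553 ± 0.046 nt) and miR-9b-5p (0.471 ± 0.026 nt), both from introns of grp, were each labelled 1 nt above their common length. The slope of miR-306-5p was −0.039 ± 0.020 nt per doubling (limma adjusted p = 0.138) and −0.0752 without the 0.25 h library (adjusted p = 0.0073).

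Among the 10 most abundant guides the fitted differences were smaller than in miR-34-5p, although miR-2b-1-3p was above it at 6, 12 and 24 h (0.502 against 0.371 nt at 24 h), as was miR-2a-1-3p at 24 h with 0.481 nt. MiR-184-3p, a germline and embryonic regulator, had 0.402 ± 0.017 nt, and miR-14-3p, which limits cell death, 0.258 ± 0.017 nt, with 0.395 nt at 0.5 h and 0.0955 nt at 24 h. Bantam-3p, a repressor of the apoptosis gene hid, had 0.0784 ± 0.019 nt, miR-8-3p, of the miR-200 family, 0.191 ± 0.018 nt, and miR-282-5p 0.192 ± 0.019 nt (SE of the limma fit). The last 5 guides, miR-184-3p to miR-282-5p, passed the test for longer labelled reads. The small mean of bantam-3p does not show that its forms were labelled alike. At 0.25 h 84.6% of its labelled reads had 23 nt, against 68.9% of all its reads, and 12.5% had 22 nt, against 23.9%. At 18 and 19 nt its labelled shares, 0.357% and 0.714%, were above those of all reads, 0.149% and 0.462%. The miR-14-3p slope, −0.055 ± 0.0083 nt per doubling (limma adjusted p = 0.00178), was 0.0311 with no background subtraction and 0.0138 with the library without s4U and IAA as background. Its fitted difference without background subtraction was 0.0254 nt (limma adjusted p = 0.171). After background subtraction its labelled share at 18 nt was below 0, with −4.14% at 0.5 h and −3.32% at 1 h. Such negative shares at a short length raise the mean length of labelled reads, so its early differences rest in part on them.

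In some guides the mean length of labelled reads was close to that of the pool. MiR-276a-3p, which acts in memory and feeding circuits, had differences of −0.0154 nt at 0.25 h, −0.00879 nt at 0.5 h, 0.00232 nt at 1 h, 0.0154 nt at 3 h, −0.0210 nt at 6 h, 0.00676 nt at 12 h and 0.00157 nt at 24 h. Its fitted difference was −0.00275 ± 0.012 nt (SE, 7 libraries, limma adjusted p = 0.844), and 94.1% of labelled and 90.2% of all reads had 22 nt at 0.5 h. Its shorter forms differed: 21 nt held 0.52% of labelled miR-276a-3p reads at 0.25 h, against 5.32% of all reads, and 4.52% at 24 h, against 5.88%. At 20 nt stood 3.93% of labelled reads at 0.25 h (26 T>C reads), against 1.97% of all reads, so a mean near 0 does not show that every form was labelled alike. MiR-252-5p had −0.00453 ± 0.016 nt and miR-965-3p 0.0349 ± 0.016 nt. The direction of miR-965-3p was not stable, with −0.0764 nt without background subtraction and, in a limma fit without the 0.5 h library, 0.0491 nt (adjusted p = 0.0276).

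Only miR-995-3p, from an intron of Cdk2, passed the test for shorter labelled reads, with −0.0764 ± 0.017 nt (SE, 6 libraries, limma adjusted p = 0.00409; −0.0367 nt at 24 h). Every usable library was below 0. Next to it in the order, the passengers miR-282-3p with −0.0701 ± 0.033 nt and miR-33-3p with −0.0448 ± 0.021 nt did not pass (limma adjusted p = 0.0757 each), but each did without 1 library: −0.0807 nt without 24 h for the first (adjusted p = 0.048) and −0.061 nt without 0.5 h for the second (adjusted p = 0.0251). MiR-282-3p and miR-33-3p had their lowest values, −0.254 and −0.142 nt, in the 6 h library, and both of these fits kept that library. MiR-190-5p had 0.0495 ± 0.030 nt and was called in neither direction (limma adjusted p = 0.152), but without the 6 h library it had 0.0772 nt (adjusted p = 0.00561). With reads of 20 to 26 nt alone its limma value was 0.155 nt (adjusted p = 4.38e-05), and without the correction for U 0.113 nt (adjusted p = 0.000259).

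Mirtron arms, which are cut from short introns by splicing in place of Drosha, were usable from 3 h or later and so were not part of the tests. MiR-1003-3p had differences of 0.274 nt at 3 h, 0.354 nt at 6 h, 0.212 nt at 12 h and 0.152 nt at 24 h. MiR-1006-3p had 0.336 nt at 6 h, 0.303 nt at 12 h and 0.301 nt at 24 h, and miR-1008-3p 0.0711 to 0.102 nt at 3 to 24 h. MiR-1012-3p lay between −0.00617 and 0.0506 nt, within 1 counting SE of 0 at 6 and 24 h. MiR-263a-5p, another Nibbler substrate, had enough reads at 24 h alone, with 0.160 ± 0.056 nt (counting SE). The K-box guide miR-2c-3p was read mostly at 18 to 20 nt and shares its first 18 bases with miR-2a and miR-2b. It was counted among the copies, since it matched a more abundant arm over its most common length of 20 nt. Its only value far from 0, −0.518 nt, came from the 6 h library.

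By class at the earliest usable time, 28 of the 55 arms were at least 0.25 nt longer, 27 lay within 0.25 nt of the pool and 0 were at least 0.25 nt shorter. Limits of 0.15 and 0.5 nt gave 38 and 13 longer arms. The longer class held 19 of 33 guides and 9 of 22 passengers. Of 33 guides 28 passed the test for longer labelled reads, as did 17 of 22 passengers, and the median fitted differences were 0.258 nt and 0.118 nt. The difference fell in 15 of 33 guides and in 15 of 22 passengers. In 15 of the 20 hairpins with both arms tested the guide had the higher fitted difference; for miR-317 the guide had 1.60 nt and the passenger 0.0241 nt, and for miR-34 1.14 nt and 0.0618 nt. The 5 hairpins with the higher passenger were miR-8, miR-276a, miR-965, bantam and miR-13b-2, where miR-13b-2-5p had 0.536 nt and miR-13b-2-3p 0.182 nt. The guides of miR-2a-1 and miR-13b-2 and the passenger of miR-276a have a copy from another hairpin with the same sequence at the most common length. Their reads therefore cannot be placed at 1 hairpin. No test of guides against passengers was made.

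Only 7 arms had a first labelled length above their most common length: miR-317-3p, miR-34-5p, miR-2b-1-3p, miR-996-3p, miR-306-5p, miR-9b-5p and miR-980-3p. In the other 48 arms both lengths were the same. First labelled lengths were 21 nt in 5 arms, 22 nt in 25, 23 nt in 16 and 24 nt in 9. Labelled reads were more uniform than the pool: at 0.25 h a median of 91.4% of labelled reads had the first labelled length, against 68.4% of all reads (higher in 36 of 36 arms), and at 24 h 74.3%, against 69.6% (higher in 46 of 55). Since that length was chosen from the earliest library, the earliest value is a description. The share of reads longer than the most common length, labelled minus all reads, had a median of −0.801 percentage points at 1 h; counted above the rounded mean length at 0 h it was 0.0187 points.

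**Figure D4:**
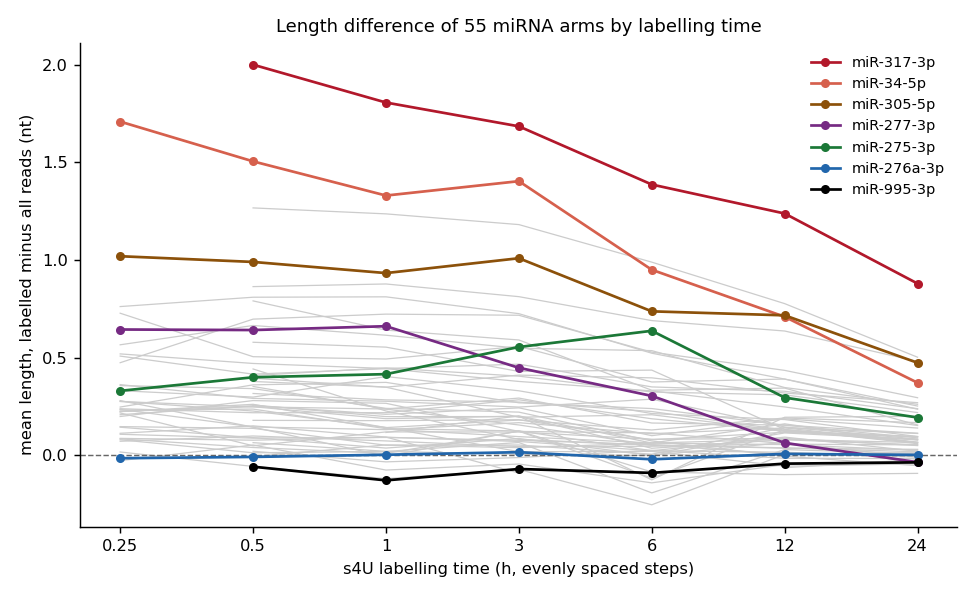
Length difference (nt, labelled minus all reads) of the 55 tested arms against labelling time (h, steps evenly spaced); grey lines are single arms and 7 arms are coloured. MiR-317-3p, miR-34-5p and miR-305-5p start at 1.02 nt or more and decline, miR-277-3p reaches 0 by 24 h, miR-275-3p peaks at 0.637 nt at 6 h, and miR-276a-3p stays at 0.

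The pace at which the difference closed varied between arms. For the 28 longer arms, the time to 50% of the earliest difference, interpolated on log2 hours, had a median of 11.9 h. It was reached in 23 of them, within 6 h in 9, between 6 and 12 h in 5 and between 12 and 24 h in 9. The median was 17.2 h in the 19 longer guides and 5.07 h in the 9 longer passengers. The fastest guides were miR-7-5p at 0.509 h, miR-13b-2-3p at 1.04 h and miR-14-3p at 2.94 h, followed by miR-277-3p at 5.50 h and miR-34-5p at 7.90 h. The value of miR-7-5p rests on its 0.25 h library, where the difference was 0.280 nt, and its slope was not called (limma adjusted p = 0.104). Its difference did not stay closed, with −0.00536 nt at 1 h, 0.125 nt at 3 h and 0.0926 nt at 12 h. The times of miR-13b-2-3p and miR-14-3p rest on the 0 h background. With the library without s4U and IAA in its place their slopes were 0.00904 and 0.0138 (limma adjusted p = 0.45 and 0.226). Slow guides were miR-317-3p at 19 h, miR-279-3p at 20.1 h, miR-184-3p at 20.4 h and miR-305-5p at 21.6 h. MiR-2a-1-3p, miR-306-5p, miR-275-3p, miR-988-3p and miR-283-5p did not reach it by 24 h. Labelled molecules made late in the course are always present, so these times are not lifetimes of the long form. The 28 arms were also chosen by the same earliest difference against which the times are measured, which in part favours lower later values. That value came from 0.25 h in some arms and from 0.5 h in others, such as miR-317-3p, miR-14-3p and miR-13b-2-3p. The times are therefore a description.

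MiR-275-3p, whose hairpin lies next to that of miR-305 on chromosome 2L, first rose in its length difference and then fell. Its difference was 0.330 nt at 0.25 h, 0.415 nt at 1 h, 0.554 nt at 3 h, 0.637 nt at 6 h, 0.295 nt at 12 h and 0.193 nt at 24 h (limma slope −0.010 ± 0.022 nt per doubling, adjusted p = 0.717). The pool itself was shorter at the peak: all its reads averaged 21.9 nt at 6 h, against 22.3 to 22.6 nt at the other labelled times, and labelled reads 22.6 nt, against 22.7 to 22.9 nt. That peak lay in the 6 h library, in which 5.72% of member reads had 18 or 19 nt, and their part in it was not tested. A rise before the fall was also seen in miR-306-5p, with 0.474 nt at 0.25 h, 0.723 nt at 1 h and 0.294 nt at 24 h.

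At 24 h the 28 longer arms kept a median of 29.4% of their earliest difference, between −16.1% and 71.2%. The difference was still at least 0.25 nt in 9 of them and below 0 in 3. Since these arms were chosen by the same earliest difference, the shares kept are a description. Across these 28 arms the share kept was hardly related to the T>C share per U at 24 h (Spearman rho −0.09). Over the 55 arms, the fitted difference and the spread of read lengths within the arm at 0 h had a Spearman rho of 0.74; both come from the same read lengths, and the points share libraries and depth.

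Labelling of each length was also set against that of the first labelled length. This measure was added after the data were seen. The first labelled length and the longer class were both chosen from the earliest usable library, which in part fixes low early values at shorter lengths, so the values are a description. T>C per U above background was set to 100% at the first labelled length. In the longer class, reads 1 nt shorter had medians of 6.94%, 14.1%, 20.2%, 29.1%, 43.3%, 57.2% and 76.4% after 0.25, 0.5, 1, 3, 6, 12 and 24 h, in that order. Reads 2 nt shorter stood at 5.51%, 9.86%, 14.2%, 18.0%, 27.04%, 33.6% and 55.9% at the same times. In the near class, reads 1 nt shorter also began low, with 23.1% at 0.25 h, 41.8% at 1 h and 87.1% at 24 h. Across both classes, 32 of 34 arms were below 50% at 0.25 h and 7 of 54 at 24 h.

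**Figure D5:**
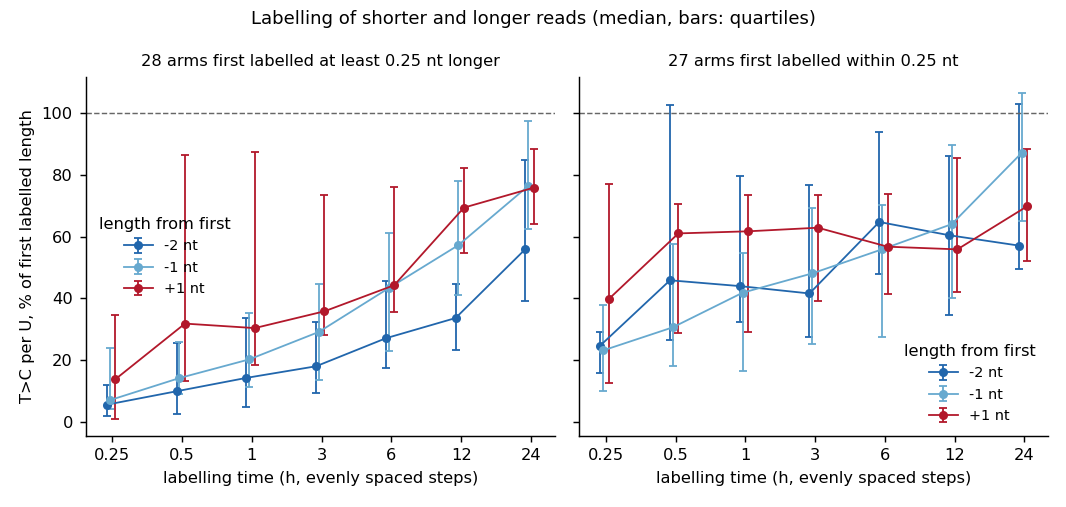
T>C per U above background of reads 2 or 1 nt shorter and 1 nt longer than the first labelled length, in percent of that length (median over arms, bars: quartiles), against labelling time (h) for the 28 longer (left) and 27 near arms (right). In the longer arms, reads 1 nt shorter stand at 6.94% at 0.25 h and 76.4% at 24 h, and reads 1 nt longer also start below 100%.

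Reads 1 nt longer than the first labelled length had lower T>C shares in most arms. The number of mismatches allowed in mapping is not given in the labels or files, so reads with an added base and T>C may be counted less often than others, which was not tested. In the longer class their median was 13.7% at 0.25 h (13 arms), 31.8% at 0.5 h (20 arms), 30.3% at 1 h (19 arms) and 75.8% at 24 h (18 arms). At these 4 times, in that order, they stood above 100% in 0, 5, 3 and 3 arms. In miR-34-5p reads of 25 nt held 0.508% T>C at 1 h (15 of 2950, exact interval 0.285% to 0.837%), against 5.09% at 24 nt, and 16.9% at 24 h, against 18.3%. In miR-275-3p reads of 24 nt held 0.222% at 1 h, against 1.21% at 23 nt. One of the arms above 100% was miR-317-3p, where reads of 25 nt held 1.07% at 0.5 h, against 1.03% at 24 nt.

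The base after the first labelled length was often not that of the hairpin. At 0 h, 37 arms had at least 500 reads reaching it, with a median of 54.2% matching the hairpin base, against 99.5% at the last base of the first labelled length (55 arms). Where the hairpin base there is T, 69.4% matched in the median arm (22 arms), and where it is another base 14.5% (15 arms), with T in 49.9% of reads. In miR-11-3p 1.27% of such reads matched the hairpin G and 77.7% had T, in bantam-5p 14.5% matched and 74.1% had T, and in miR-279-3p 94.7% had A. A matching T cannot be told apart from an added one. In miR-317-3p 67.8% had T and 1.37% the hairpin G, and in miR-34-5p 67.8% had the hairpin T and 29.7% A.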

How the data were processed

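Small RNA libraries of S2 cells were analysed from the tables the authors deposited. Per the submitters' processing notes, cutadapt 1.7.1, Bowtie 1.2.2 and Picard were used on dm6, and their settings were not stated in the sources used here. The deposited length and position tables hold a signal in RPM (scaled to small RNA reads, from the values), and multiplied by the deposited library counts 100% of values were whole reads (tolerance 0.001). The deposited mismatch table holds counts of reads with each base at each position, per the file headers. Coordinates are those of BDGP6 by FlyBase identifier.

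For each arm, start and library, labelled reads per length were T>C reads minus the 0 h T>C share of that length times all reads, divided by the number of U. Differences needed 200 T>C reads, at least 50% of them above background. They were fitted with limma 3.58.1 in R 4.3.3 on centred log2 hours (55 arms, 7 libraries, missing values left out). On simulated data the test recovered the difference in 92.6% of 27 changed arms and called 1 of 28 unchanged arms. It recovered the slope in 33.3% of the changed arms, so a slope without a call does not show a constant difference. The simulated background was a single share for all lengths of an arm. These rates therefore do not cover errors from a background that differs between lengths. Named arms were the 10 highest, 5 lowest and 5 nearest-0 fitted differences, the 5 lowest and 5 highest slopes, the 10 most abundant guides, and the Nibbler, mirtron, K-box and miR-277-3p arms; others were chosen after their values were seen. Members, lists and tests were chosen with earlier results of these data known. Depth was 10321559 to 13199979 miRNA reads per library. Oxidised libraries were not used here. Python 3.11.15 was used with matplotlib 3.10.9, scipy 1.17.1, pandas 2.3.3 and numpy 2.4.6.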

Additional observations from a re-analysis of the deposited data

Results flagged for a closer look

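The length difference changed with labelling time in 30 of 55 arms, in each of which it fell (limma slope on log2 hours, adjusted p under 0.05), so early and late libraries gave different values of the same contrast. The 5 steepest slopes were −0.189 nt per doubling of time in miR-317-3p, −0.187 in miR-34-5p, −0.133 in miR-2b-1-3p, −0.113 in miR-277-3p and −0.108 in miR-13b-2-5p. Of these, the slopes of miR-317-3p and miR-2b-1-3p lost their call with the library without s4U and IAA as background (−0.0853 and −0.0634).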

How the results depend on the processing

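No paired analysis was possible because each labelling time has 1 library. Across the alternative settings 221 of 247 counts and medians stayed within 1.5 times their value or within the spread between libraries, as did the call and direction of 584 of 619 fitted differences and 555 of 619 slopes of named arms. Without background subtraction 5 arms were shorter (3 with 1 share of 0 h for all lengths; 2 with the library without s4U and IAA, at 100 T>C reads, with no minimum above background, or at 20 to 26 nt; 0 with arms usable in all 7 libraries). It also gave 14 falling and 3 rising slopes, 2 shorter arms at the earliest time and a 1 h median of 0.139 nt. The cause of these changes was not tested. With 1 share of 0 h for all lengths there were 2 rising slopes and 2 arms shorter at the earliest time, and with the second background 1 rising slope. Without a minimum above background 1 arm was shorter at the earliest time. Without the correction for U the 1 h median was 0.272 nt. Fewer arms could be tested with at least 500 T>C reads (19 falling, 17 longer at the earliest time) and in all 7 libraries (18 and 16). Class limits of 0.15 and 0.5 nt gave 17 and 42 near arms and 13 longer ones at 0.5 nt. The share of long reads turned to 0.0187 points with the rounded mean length. Leaving out 1 library gave 44 to 48 longer, 1 to 2 shorter, 21 to 31 falling and 0 to 0 rising arms, 26 to 30 longer, 27 to 36 near and 0 to 0 shorter arms at the earliest time, medians of 0.214 to 0.218 nt at 1 h and 0.0668 to 0.0787 nt at 24 h, 10.7 to 13.7 h to 50%, and −0.830 to −0.801 points. Directions that turned without background subtraction were the fitted differences of miR-13b-2-3p (−0.118 nt), miR-965-3p (−0.0764) and miR-252-5p (0.00484) and the slopes of miR-13b-2-3p (0.0533), miR-2a-1-3p (0.0426), miR-14-3p (0.0311), miR-11-3p (0.0112) and bantam-3p (0.00278). With 1 share of 0 h for all lengths the differences of miR-13b-2-3p (−0.134), miR-965-3p (−0.115) and miR-252-5p (0.00968) and the slopes of miR-13b-2-3p (0.0613) and miR-14-3p (0.026) turned. With the second background the differences of miR-965-3p (−0.0517) and miR-252-5p (0.00118) and the slopes of miR-14-3p (0.0138), miR-13b-2-3p (0.00904) and miR-2a-1-3p (0.000797) turned. The remaining turns were in values near 0, and their cause was not tested. Differences turned in miR-276a-3p (0.018 without U correction, 0.0125 at 20 to 26 nt, 0.00654 with weights, −0.00577 to 0.000304 leaving out 1 library), miR-252-5p (0.0275 without U correction, −0.0134 to 0.00432 leaving out 1 library) and miR-308-5p (−0.00985 to 0.0355 leaving out 1 library). MiR-308-5p had −0.193 nt at 6 h and was above 0 at every other labelled time. Slopes turned in miR-965-3p (−0.0634 with no minimum above background, −0.00958 with weights, −0.00338 to 0.0109 leaving out 1 library), miR-282-3p (0.0092 with weights, −0.015 to 0.0101 leaving out 1 library), miR-190-5p (−0.00614 at 20 to 26 nt, −0.00566 to 0.00853 leaving out 1 library), bantam-3p (0.00238 at 75% above background, −0.00985 to 0.00238 leaving out 1 library), miR-252-5p (0.00355 at 500 T>C reads, −0.00594 to 0.00355 leaving out 1 library), and with weights miR-276a-3p (−0.00125) and miR-308-3p (0.0163). At 0.25 h 49 arms had 200 T>C reads and 37 also met the minimum above background.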

Other observations

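The passenger arm miR-279-5p was labelled early at its longest abundant form. It was usable in 3 libraries, the earliest at 3 h, and so was not part of the tests over time. Its shares before 3 h come from libraries below the limits for a usable value. Of its reads of 26 nt, 0.103% carried T>C at 0 h (1 of 972 reads), and after labelling for 0.25, 0.5, 1, 3, 6, 12 and 24 h the share was 6.38%, 12.8%, 14.4%, 14.5%, 9.28%, 9.98% and 10.7%, in that order. The exact 95% interval was 5.08% to 7.88% at 0.25 h (79 of 1239 reads) and 8.97% to 12.6% at 24 h (126 of 1181 reads), for counting error only. Over all member arms the share was 0.438% at 0.25 h and 11.6% at 24 h.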
